A study of Homo sapiens with 8 samples.

Results

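The genes described here are 10 components of the NF-kappaB system, counted among 58870 gene rows: the subunits RELA, NFKB1, NFKB2 and RELB, the inhibitors NFKBIA and NFKBIE, the feedback regulators TNFAIP3 and TNIP1, and the target genes BIRC3 and TNFAIP2. They were found by their symbols, each of which matched 1 row. RNA was sequenced from Panc 10.05 cells, an established line from a human ductal adenocarcinoma of the pancreas, in 4 control libraries and 4 libraries of cells overexpressing ELAPOR1, a membrane protein of endosomes and lysosomes. The labels do not give the vector, its promoter, what the control cells received, whether the ELAPOR1 cells were a clone or a pool, or whether the libraries came from separate cultures, so the spread between libraries may be technical. The series addressed whether ELAPOR1 induces the classical/progenitor subtype of pancreatic cancer and alters metabolism.

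NF-kappaB is a family of dimeric transcription factors made from RELA, RELB, REL and the DNA-binding parts of the NFKB1 and NFKB2 products. IkappaB proteins such as NFKBIA and NFKBIE hold the dimers in the cytoplasm until the IkappaB kinase marks them for destruction. The released dimers switch on target genes that include their own brakes: NFKBIA is made anew, and TNFAIP3 (A20), a ubiquitin-editing enzyme, shuts down signalling upstream of the kinase together with its adaptor TNIP1. A slower, non-canonical branch runs through the kinase MAP3K14 (NIK) and gives dimers of RELB with processed NFKB2.

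The set was chosen by a strong rise of TNFAIP3 in these same libraries, so the differences of its genes between the groups are given as descriptions and without p-values. In ELAPOR1 libraries TNFAIP3 was 2.77-fold higher, NFKBIA, REL (a subunit outside the 10) and RELB were 1.20-fold to 1.28-fold higher, TNIP1 was 1.27-fold lower, and the most abundant subunits, RELA and NFKB2, differed by 1.07-fold or less. Of the 10 genes, 5 were called higher and 1 lower in a test over all 13860 measurable genes, in which 44.7% of genes were called (22.6% higher and 22.1% lower). A call here means a Benjamini-Hochberg adjusted p-value under 0.05 in edgeR's quasi-likelihood test. With so large a share called, the number of calls says little about these genes, and the sizes are given instead.

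Libraries held 13765509 to 18128757 counts. The introduced gene stood at 1 to 4 counts in each control library and at 5910 to 7368 in each ELAPOR1 library, which matched the labels. All 5 epithelial markers examined (EPCAM, KRT8, KRT18, KRT19 and CDH1) were present, summing to 10895 to 12037 CPM (counts scaled by library size) in control and 9787 to 10113 CPM in ELAPOR1 libraries. All 3 acinar markers were at 0 counts. Of the other markers only 1 of 6 for fibroblasts (COL1A1), 1 of 7 for immune cells (CD68) and 1 of 4 for endothelium (VWF) reached 1 CPM in any library. The immune list summed to 82.4 to 89.0 CPM in control and 73.4 to 79.5 in ELAPOR1 libraries, and the endothelial list to 1.61 to 1.95 and 0.576 to 0.865; their part in the results was not tested. Values with ± below are means and SDs of the 4 libraries of a group. In bulk RNA, fewer cells expressing a gene and less RNA per cell cannot be told apart.

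The promoters of several of these genes carry the decameric kappaB consensus to which the dimers bind, which is why they are shown first. Sequences are from RefSeq on GRCh38.p14, 5′ to 3′ on the strand of the gene and upstream of the RefSeq start. Capitals mark the matches, found on either strand.

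TNFAIP3: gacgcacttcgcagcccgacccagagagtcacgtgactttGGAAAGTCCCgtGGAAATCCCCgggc
NFKBIA: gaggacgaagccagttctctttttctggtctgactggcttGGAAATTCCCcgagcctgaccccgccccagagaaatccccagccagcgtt
NFKB1: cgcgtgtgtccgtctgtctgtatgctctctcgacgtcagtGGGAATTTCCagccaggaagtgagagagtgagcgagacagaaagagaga
TNIP1: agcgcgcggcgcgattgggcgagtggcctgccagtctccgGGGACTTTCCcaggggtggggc
BIRC3: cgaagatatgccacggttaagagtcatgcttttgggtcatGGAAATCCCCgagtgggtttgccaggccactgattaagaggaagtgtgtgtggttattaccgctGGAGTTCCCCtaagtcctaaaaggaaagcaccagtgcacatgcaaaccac
REL: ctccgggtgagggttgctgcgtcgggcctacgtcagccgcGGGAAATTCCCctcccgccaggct

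The TNFAIP3 stretch (chr6:137867152-137867217, plus strand) held a pair of matches close together, at positions -67 to -58 and -55 to -46 from the RefSeq start. GENCODE 29 begins the gene further upstream, so that both matches lie in an annotated exon there, as do those of TNIP1 and REL. The NFKBIA stretch (chr14:35404781-35404870, minus strand) held 1 match at -81 to -72, and that of NFKB1 (chr4:102501270-102501358, plus strand) 1 match at -49 to -40. The window of the other start listed for NFKB1 had no match. The TNIP1 stretch belongs to 1 of the 2 starts that the table lists for this gene (chr5:151081055-151081116, minus strand) and had its match at -42 to -33. In BIRC3 (chr11:102317245-102317398, plus strand) the matches were further from the start, at -199 to -190 and -135 to -126. REL (chr2:60881487-60881550, plus strand) had overlapping matches on the 2 strands, from -47 to -37. NFKB2 also had matches, upstream of 2 of its 3 listed starts.

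Of 35116 promoter windows in the table, 5.21% held at least 1 match in the 250 bases before the start, and 0.253% held matches at 2 or more separate places. Of the 10 genes, 8 had a window in the table (NFKBIE and RELB did not), and 6 of the 8 held a match; counted by window, 7 of their 13 windows did. RELA and TNFAIP2 had no such letters in their windows. A match describes letters only. The genes that carry one differed in direction here: TNFAIP3, NFKBIA and NFKB1 were called higher, TNIP1 was called lower, and BIRC3 and NFKB2 were not called.

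TNFAIP3 (ENSG00000118503.15, chromosome 6, 137867188 to 137883312, plus strand, GRCh38 with GENCODE 29) showed the largest difference of the 10. The control libraries held 6.15, 7.61, 5.63 and 6.95 CPM and the ELAPOR1 libraries 19.3, 17.7, 18.1 and 17.997 CPM, from 94 to 129 and from 251 to 315 counts. Every ELAPOR1 library was more than 2 times above every control library. Mean levels were 6.59 ± 0.872 and 18.3 ± 0.725 CPM, and the log2 fold change was 1.47 (SE 0.0976). Of all tested genes, 99.2% had a smaller difference in size. The antisense gene AL357060.1 overlaps TNFAIP3 but had at most 8 counts in any library.

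TNIP1 (ENSG00000145901.15, chromosome 5, 151029945 to 151093577, minus strand), whose product binds A20 and carries it to ubiquitin chains, went the other way. Its control libraries held 106, 104, 113 and 119.9 CPM and its ELAPOR1 libraries 85.2, 88.8, 85.0 and 88.8 CPM. The groups did not overlap, and the log2 fold change was -0.35 (SE 0.0425). Scaling between libraries cancels in a ratio within a library. The TNFAIP3 to TNIP1 ratio, in counts per kilobase of transcript, was 0.0370 ± 0.00601 in control and 0.130 ± 0.00766 in ELAPOR1 libraries. TNIP1 transcripts exceeded TNFAIP3 transcripts in every library.

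Of the IkappaB genes, NFKBIA (ENSG00000100906.10, chromosome 14, 35401511 to 35404749, minus strand), the inhibitor resynthesised fastest after activation, was called higher. Its control libraries held 33.2, 34.3, 36.3 and 35.8 CPM and its ELAPOR1 libraries 43.6, 45.9, 46.0 and 41.6 CPM. The lowest ELAPOR1 library was above the highest control library, and the log2 fold change was 0.34 (SE 0.0553). NFKBIE (ENSG00000146232.16, chromosome 6, 44258166 to 44265788, minus strand) encodes IkappaB-epsilon, a slower inhibitor. It held 20.3, 23.2, 22.3 and 21.8 CPM in control and 19.3, 21.2, 18.3 and 20.3 CPM in ELAPOR1 libraries, with overlapping groups and a log2 fold change of -0.14 (SE 0.0729) that was not called. Without control replicate 1, the lowest of its group, NFKBIE was called lower, at -0.19. The NFKBIA to NFKBIE ratio per kilobase was 2.64 ± 0.127 in control and 3.72 ± 0.328 in ELAPOR1 libraries.

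**Figure D1:**
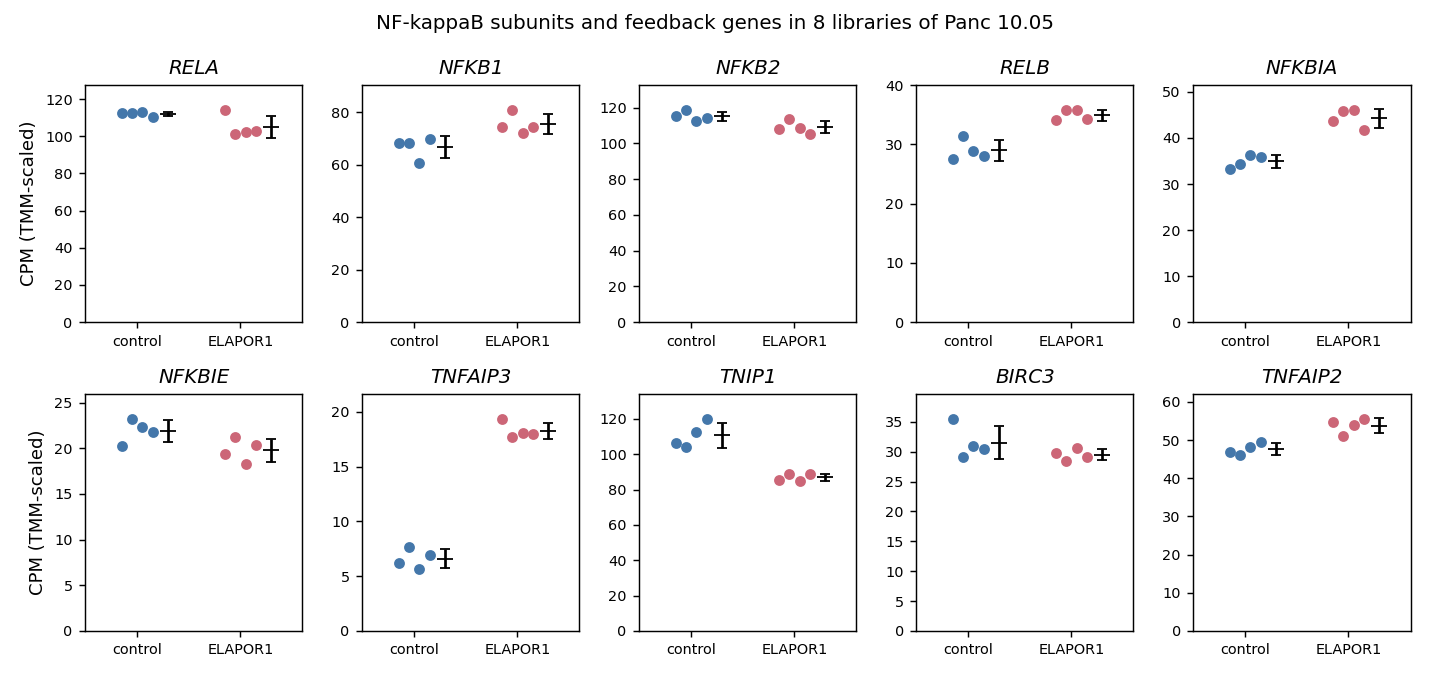
CPM scaled by TMM (y axis, from 0) of the 10 genes in each of 4 control and 4 ELAPOR1 libraries (x axis); points are libraries, and the black bar beside them is the mean with its SD. TNFAIP3 separates the groups most, TNIP1 is lower in all ELAPOR1 libraries, and the groups overlap for RELA, NFKB2, NFKBIE and BIRC3.

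Among the subunits, RELA (ENSG00000173039.19, chromosome 11, 65653596 to 65663094, minus strand), the main transactivating subunit of the canonical branch, was not called. It held 113, 113, 113 and 110.4 CPM in control and 114, 101, 102 and 103 CPM in ELAPOR1 libraries. ELAPOR1 replicate 1 lay at the control level and the other 3 below it. The log2 fold change was -0.09 (SE 0.0396), and RELA was called lower in 6 of the 18 alternatives run. These were 2 other scalings, a stricter filter on counts, and leaving out control replicate 1 (-0.10), control replicate 4 (-0.10) or ELAPOR1 replicate 1 (-0.14).

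NFKB2 (ENSG00000077150.19, chromosome 10, 102394110 to 102402529, plus strand) encodes p100, the precursor of p52 and itself an inhibitor of RELB. It held 115, 118, 112 and 114 CPM in control and 108, 114, 109 and 105 CPM in ELAPOR1 libraries. The groups overlapped, and a log2 fold change of -0.08 (SE 0.0371) was not called. Without ELAPOR1 replicate 2, the highest of its group, NFKB2 was called lower, at -0.10.

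NFKB1 (ENSG00000109320.12, chromosome 4, 102501329 to 102617302, plus strand), which encodes p105 and p50, was called higher by a small amount. Control libraries held 68.4, 68.4, 60.6 and 69.7 CPM and ELAPOR1 libraries 74.6, 80.8, 72.3 and 74.6 CPM, with a log2 fold change of 0.18 (SE 0.0475). The groups did not overlap, but control replicate 3 stood below the other 3 controls. Without it the log2 fold change was 0.13 and NFKB1 was still called.

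RELB (ENSG00000104856.14, chromosome 19, 45001430 to 45038198, plus strand), the partner of p52, was also called higher. It held 27.6, 31.4, 28.9 and 28.0 CPM in control and 34.1, 35.7, 35.7 and 34.2 CPM in ELAPOR1 libraries, with no overlap and a log2 fold change of 0.27 (SE 0.0602). REL, the remaining subunit (ENSG00000162924.14, chromosome 2, 60881521 to 60931610, plus strand), held 13.3, 13.4, 11.03 and 10.7 CPM in control and 15.2, 16.6, 15.5 and 14.998 CPM in ELAPOR1 libraries. REL rose by 0.36 on the log2 scale (edgeR adjusted p = 1.3e-03, SE 0.0904). It overlaps AC010733.2, which had 130 to 235 counts per library, so its value is uncertain if reads were shared. The 20 nearest measured genes of REL averaging 5 CPM or more had a median of 0.14, with 14 of them higher. Their part in the REL value was not tested.

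**Figure D2:**
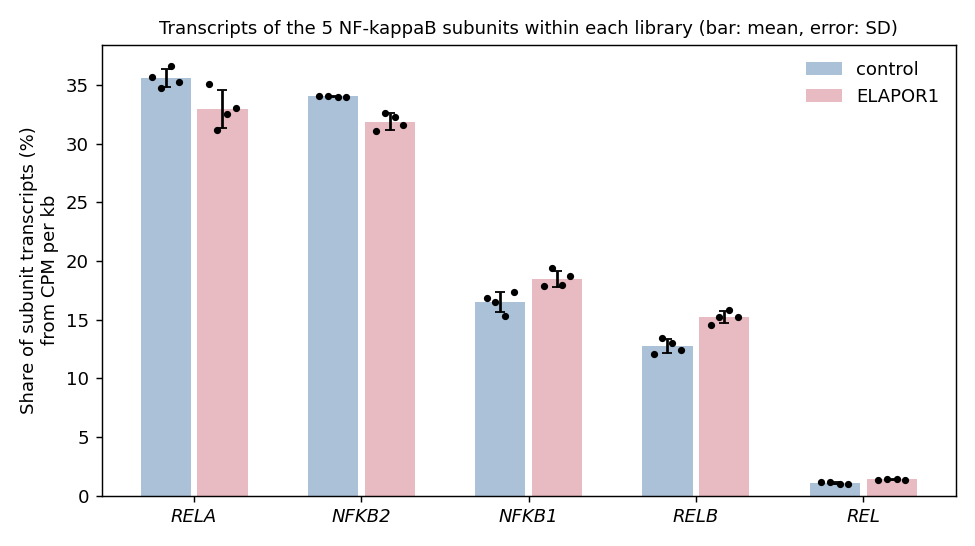
Share of each subunit in the transcripts of all 5 NF-kappaB subunit genes (y axis, percent, from CPM per kilobase of the longest coding transcript) in control (blue) and ELAPOR1 (red) libraries; bars are means of 4 libraries, error bars SD, points single libraries. RELA and NFKB2 hold the largest shares in both groups, while those of NFKB1, RELB and REL are larger in the ELAPOR1 libraries.

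Taken as shares of the 5 subunit genes within a library, the group means kept their order and shifted by a few percentage points. In ELAPOR1 replicate 2 alone, NFKB2 (32.7%) was above RELA (31.2%). RELA made up 35.6 ± 0.784% of subunit transcripts in control and 33.0 ± 1.63% in ELAPOR1 libraries, and NFKB2 34.1 ± 0.0508% and 31.9 ± 0.715%. The RELA ranges overlapped (34.8 to 36.6% and 31.2 to 35.1%), and those of NFKB2 did not. Shares are relative to each other, so larger shares of some subunits mean smaller shares of others. In CPM the NFKB2 groups overlapped (112 to 118 in control and 105 to 114 in ELAPOR1 libraries), and NFKB2 was not called. NFKB1 went from 16.5 ± 0.863% to 18.5 ± 0.701% and RELB from 12.8 ± 0.598% to 15.2 ± 0.505%. REL was the smallest share, at 1.09 ± 0.112% and 1.39 ± 0.0526%. With the union of all exons as gene length, NFKB2 (38.1% in control) instead of RELA (30.5%) was the largest share, and every shift kept its direction.

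BIRC3 (ENSG00000023445.14, chromosome 11, 102317450 to 102339403, plus strand), which encodes cIAP2, a ubiquitin ligase of the TNF receptor complex and a classical NF-kappaB target, was not called. It held 35.5, 29.1, 31.0 and 30.4 CPM in control and 29.8, 28.4, 30.6 and 29.1 CPM in ELAPOR1 libraries. The groups overlapped, with a log2 fold change of -0.10 (SE 0.0647). The BIRC3 to TNFAIP3 ratio per kilobase was 4.44 ± 0.841 in control and 1.47 ± 0.0562 in ELAPOR1 libraries. Its close paralogue BIRC2 (cIAP1) rose by 0.16 on the log2 scale (edgeR adjusted p = 1.9e-03, SE 0.0409). All counts of the 10 genes were whole numbers to within 1e-06, so no fraction of a read was visible in their totals. Whole totals cannot show that no read was ambiguous between genes.

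TNFAIP2 (ENSG00000185215.9, chromosome 14, 103123442 to 103137439, plus strand), a TNF-inducible gene whose product shapes membrane protrusions, was called higher. It held 46.9, 46.2, 48.1 and 49.6 CPM in control and 54.8, 51.0, 53.9 and 55.5 CPM in ELAPOR1 libraries, with no overlap. The log2 fold change was 0.18 (SE 0.0489), close to the median size of 0.18 over all tested genes.

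The 6 called genes (TNFAIP3, NFKBIA, NFKB1, RELB, TNFAIP2 and TNIP1) were the 6 of the 10 whose groups did not overlap; over all tested genes 39.2% did not overlap. The median log2 fold change of the 10 was 0.048, against 0.00087 over all tested genes, and the median size 0.18 in both. The 20 nearest measured genes averaging 5 CPM or more, 10 on each side, gave medians from -0.13 (NFKBIE) to 0.065 (TNFAIP2) for the 10 loci. For TNFAIP3 the median of its neighbours was 0.0044.

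**Figure D3:**
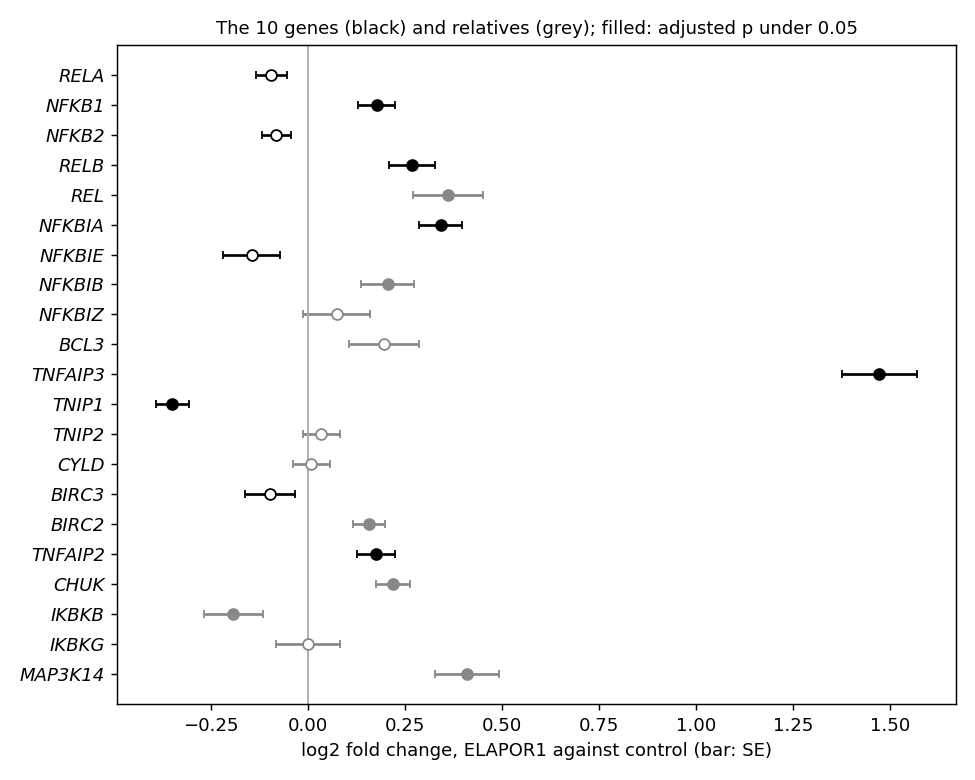
Log2 fold change of ELAPOR1 against control (x axis, bars are SE) for the 10 genes in black and related genes in grey; filled symbols were called at an adjusted p-value under 0.05. TNFAIP3 at 1.47 lies apart from all others, which fall between -0.35 and 0.41.

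Levels between genes were compared as CPM per kilobase of the longest coding transcript. In control libraries the order was TNIP1 (37.8 ± 2.41), RELA (35.2 ± 0.358), NFKB2 (33.7 ± 0.729), NFKBIA (22.4 ± 0.893), NFKB1 (16.3 ± 1.02), RELB (12.6 ± 0.744), TNFAIP2 (10.2 ± 0.314), NFKBIE (8.49 ± 0.470), BIRC3 (6.06 ± 0.533) and TNFAIP3 (1.39 ± 0.184). The ranges of TNIP1, RELA and NFKB2 adjoined each other without overlap, from 32.9 to 40.9, and their order changed with the union of all exons as length, so their order depends on the length used. In ELAPOR1 libraries RELA (33.0 ± 1.88) and NFKB2 (31.9 ± 1.02) overlapped at the top, TNIP1 (29.6 ± 0.720) overlapped NFKBIA (28.4 ± 1.34), and the other 6 kept their places. TNFAIP3 was the lowest of the 10 in both groups, and reached 3.86 ± 0.153 in ELAPOR1 libraries. NFKBIA remained far above it, with a TNFAIP3 to NFKBIA ratio of 0.0622 ± 0.00899 in control and 0.136 ± 0.00944 in ELAPOR1 libraries.

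By Pearson correlation of log2(CPM + 1) over the 8 libraries, the genes most like TNFAIP3 (mean level of 5 CPM or more) were POLR2C (r = 0.996), SDC4 (0.994), PARP1 (0.994), PNPT1 (0.993) and STRN4 (0.993). The 8 libraries form 2 groups, so these values mainly reflect genes with a higher level and little spread in ELAPOR1 libraries. Their own differences were smaller, with log2 fold changes from 0.26 (POLR2C) to 0.48 (PNPT1). SDC4 is also on the list of target genes used below.

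Other genes of the pathway were counted in 4 lists by role, none of which holds any of the 10 genes. Of 35 receptor and ligand genes, 22 were measurable, and 3 rose and 5 fell (36.4% called, against 44.7% of all tested genes, median log2 fold change -0.053). The ligands that classically start the canonical branch had few counts in both groups: TNF had at most 5 counts, IL1A at most 11 and IL1B at most 15 in any library. LTBR, the lymphotoxin-beta receptor that feeds the non-canonical branch, fell from 278 ± 9.70 CPM in control to 198 ± 5.23 CPM in ELAPOR1 libraries, or by 0.49 on the log2 scale (edgeR adjusted p = 1.6e-14, SE 0.0323). IL18, a cytokine of the IL-1 family, fell by 0.73 (adjusted p = 1.7e-15, SE 0.0438) and TNFSF12 (TWEAK) by 0.45 (adjusted p = 2.4e-03, SE 0.119) on the log2 scale. TLR3, a sensor of double-stranded RNA, rose by 0.56 (adjusted p = 3.8e-04, SE 0.124).

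Of 35 adaptor and kinase genes, 34 were measurable, and 10 rose and 8 fell (52.9% called, against 44.7% of all tested genes, median 0.034). The count of 10 includes TRAF5, whose difference is a description (below). MYD88, the adaptor of Toll-like and IL-1 receptors, rose from 34.5 ± 1.31 to 49.5 ± 1.98 CPM (edgeR adjusted p = 7.2e-10, log2 fold change 0.52, SE 0.0534), and IRAK2, a kinase next to it, rose by 0.37 (adjusted p = 6.1e-04, SE 0.0866). RIPK2, the kinase below NOD receptors, fell by 0.54 on the log2 scale (adjusted p = 2.2e-12, SE 0.0428). MAP3K14 rose from 20.8 ± 2.58 to 27.6 ± 2.82 CPM (adjusted p = 1.8e-04, log2 fold change 0.41, SE 0.0829). Its 20 nearest measured genes on chromosome 17 had a median of 0.21, with 14 of them higher, and their part in the MAP3K14 value was not tested. TRAF5 was named after its value was seen: it stood at 2 to 9 counts in control and 31 to 44 in ELAPOR1 libraries (log2 fold change 2.94, SE 0.344), and it passed the filter on low counts only through the ELAPOR1 libraries, so that its difference is a description.

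The subunits of the IkappaB kinase had different signs. CHUK (IKK-alpha), the kinase of the non-canonical branch, rose by 0.22 on the log2 scale (edgeR adjusted p = 1.0e-04, SE 0.0440). IKBKB (IKK-beta), the main kinase of the canonical branch, fell by 0.19 (adjusted p = 0.0388, SE 0.0760), with overlapping groups of 21.5 ± 1.33 and 18.9 ± 1.54 CPM. That call was lost in 7 of 16 other fits at the same threshold, among them the DESeq2 Wald test, total count scaling and leaving out control replicate 2 or 3 or ELAPOR1 replicate 1 or 2. Without ELAPOR1 replicate 1 the log2 fold change was -0.13. The regulatory subunit IKBKG was at 19.2 CPM in both groups (log2 fold change 0.0013, SE 0.0816, adjusted p = 0.991).

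Of 30 other inhibitor genes, 28 were measurable, and 7 rose and 2 fell (32.1% called, against 44.7% of all tested genes, median 0.023). NFKBIB, the third classical IkappaB, rose by 0.21 on the log2 scale (edgeR adjusted p = 0.0136, SE 0.0685), a call lost without control replicate 3 (0.18) and without ELAPOR1 replicate 2 (0.17). The nuclear IkappaB genes, listed here by family and not by their effect on transcription, were not called. NFKBIZ stood at 14.3 ± 1.20 and 15.1 ± 1.09 CPM, and BCL3, which total count scaling alone called higher, at 12.2 ± 1.02 and 14.0 ± 0.937 CPM. CYLD, a deubiquitinase that acts beside A20, was at 71.8 ± 4.80 and 72.5 ± 2.95 CPM (log2 fold change 0.0097, SE 0.0472). TNIP2, the relative of TNIP1, was at 58.0 ± 2.51 and 59.4 ± 2.02 CPM (0.036, SE 0.0472), and TNIP3 had no count in any library. COMMD1, which promotes the breakdown of RELA, rose by 0.52 (adjusted p = 1.4e-04, SE 0.105) and the interferon-inducible USP18 by 0.48 (adjusted p = 3.5e-05, SE 0.0896). SIGIRR, an inhibitory receptor of the IL-1 receptor family, fell by 0.58 (edgeR adjusted p = 1.4e-10, SE 0.0553) and NFKBIL1 by 0.53 (adjusted p = 3.6e-08, SE 0.0654).

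Of 50 other target genes, SOD2 was left out because it had 2 rows, 12 were below the filter on low counts, and 37 were measurable. Of these 37, 16 rose and 13 fell (78.4% called, median 0.097, median size 0.32). Over all tested genes 44.7% were called, with a median size of 0.18. The list was drawn up with earlier results of these data known, and it holds genes with many other regulators. Its share of calls is a description and was not tested against that of all genes. LCN2 (lipocalin 2) fell from 63.7 ± 3.89 to 24.6 ± 1.02 CPM, PLAU (urokinase) from 1549.8 ± 29.7 to 1097 ± 8.05 CPM, and IER3 from 145 ± 4.37 to 107 ± 2.10 CPM. Their log2 fold changes were -1.38 (edgeR adjusted p = 6.4e-20, SE 0.0567), -0.50 (adjusted p = 2.5e-17, SE 0.0255) and -0.44 (adjusted p = 3.1e-12, SE 0.0359). NUAK2 rose by 0.42 (edgeR adjusted p = 9.9e-05, SE 0.0844). SDC4, named for its correlation with TNFAIP3 over these libraries, was higher by 0.36 (SE 0.0287), which is a description. CXCL8 (interleukin 8), INHBA, PTGS2 and CSF2 were named after their values were seen, and their differences are given as descriptions. CXCL8 held 11 to 23 counts in control and 50 to 65 in ELAPOR1 libraries (log2 fold change 1.94, SE 0.244), and INHBA 7 to 16 and 33 to 40 counts (1.86, SE 0.296). PTGS2 (cyclooxygenase 2), with at most 39 counts in any library, stood at 1.05 ± 0.224 and 2.25 ± 0.435 CPM, and CSF2 (GM-CSF), with at most 20 counts, at 0.353 ± 0.174 and 0.984 ± 0.171 CPM. INHBA and CSF2 passed the filter on low counts only through the ELAPOR1 libraries, and both are counted among the 16 that rose. Some other inflammatory targets were below that filter and not tested. In any library there were at most 15 counts of CXCL1, 6 of IL6 and 2 of CCL20. Others were tested, and their log2 fold changes are also given as descriptions. CXCL2 (-0.033), CXCL5 (0.28) and CCL5 (0.34) were not called. ICAM1 (-0.17) and IL32 (-0.40) were called lower, and LIF (0.23) was called higher.

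**Figure D4:**
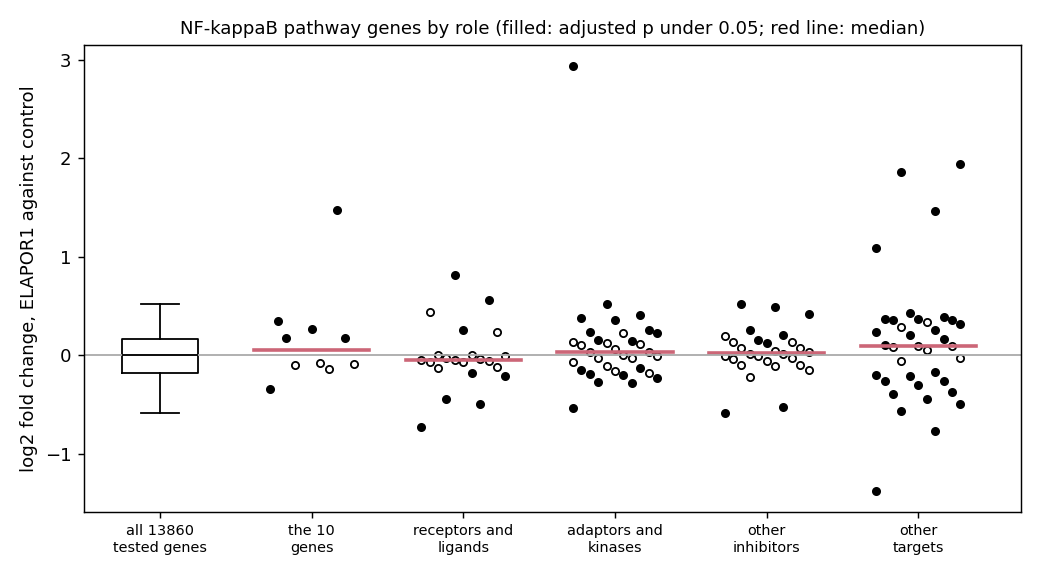
Log2 fold change of ELAPOR1 against control (y axis) for the measurable genes of the 10-gene set and of 4 lists of pathway genes (x axis); filled points were called at an adjusted p-value under 0.05, red lines are medians, and the box holds the quartiles of all 13860 tested genes with whiskers from the 5th to the 95th percentile. Every list has genes on both sides of 0, and list medians lie between -0.053 and 0.097.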

How the data were processed

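The authors deposited estimated counts per gene (expected counts, as the name of the table says), 1 column per library; cutadapt, STAR, RSEM, DESeq2 and the build hg38 are named in the submitters' processing notes, and the annotation release and use of strand were not given in the sources used here. After rounding, edgeR 4.0.16 (R 4.3.3) was run on the counts (filterByExpr, TMM, robust glmQLFit and glmQLFTest, two-sided, no covariate), with Benjamini-Hochberg adjustment over 13860 genes. The SE is the size of the log2 fold change divided by the square root of F. CPM are scaled by TMM. Per length, CPM were divided by the longest protein-coding transcript in GENCODE 29; coordinates are from the same release, in which 58588 identifiers were found without their version number. The kappaB consensus was searched in RefSeq promoter windows. SOD2 had 2 rows and was left out of its list.

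The genes and lists were chosen with earlier results of these data known. Named beside the 10 genes were ELAPOR1, 12 relatives whatever their values, the 4 largest called changes of each list (mean of at least 5 CPM, no overlap between groups) and the 5 genes most correlated with TNFAIP3. Some further genes of the lists were named after their values were seen. Protein sequences were not analysed here. Alternatives were 3 other scalings, the DESeq2 1.42.0 Wald test, limma-voom (limma 3.58.1), 2 other filters, leaving out each library, a block on the replicate number, a test against a 1.5-fold change and an adjusted p-value under 0.01. Plots were drawn with matplotlib 3.10.9.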

Additional observations from a re-analysis of the deposited data

Results flagged for a closer look

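In 6 of 90 groups of 4 libraries examined, a single library lay apart from the rest by Dixon's test at the 95% level; chance alone gives about 1 in 20, or 4.5. For NFKB1, control replicate 3 was at 60.6 CPM and the other controls at 68.4 to 69.7. For RELA, control replicate 4 was at 110.4 CPM against 113 in each of the other controls, and ELAPOR1 replicate 1 at 114 CPM against 101 to 103 in the other ELAPOR1 libraries. LTBR was at 206 CPM in ELAPOR1 replicate 3 and at 195 to 196 in the others, and TNFSF12 at 7.37 CPM in ELAPOR1 replicate 1 and at 5.92 to 6.12 in the others. MYD88 was at 32.6 CPM in control replicate 3 and at 35.0 to 35.5 in the other controls.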

How the results depend on the processing

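All 6 called genes of the 10 stayed called, in the same direction, in 17 of the 18 alternatives. The exception was glmTreat against 1.5-fold, calling 1 of the 10 genes (TNFAIP3, whose rise chose the set), 1 receptor or ligand gene (IL18), 1 adaptor or kinase gene (TRAF5, filtered in through the ELAPOR1 libraries only), 0 other inhibitors (0 at an unadjusted p under 0.05 in glmTreat, and 8 by the DESeq2 Wald test of any change), 3 target genes (CXCL8, INHBA and LCN2) and 215 of all tested genes; it asks for a larger change by construction. Leaving out each library in turn gave 6 to 8 of the 10 genes, 7 to 9 receptors and ligands, 17 to 19 adaptors and kinases, 7 to 12 other inhibitors, 27 to 30 targets and 5557 to 6316 genes in all. With the replicate number as a block, 6 of the 10 genes and 5926 of all genes were called. No pairing by replicate number was visible: the deviations of same-numbered libraries from their group means correlated at -0.12, 0.027, 0.031 and -0.11. These values cannot show whether same-numbered libraries were prepared together. Under every scaling run, the median over all tested genes shifted by less than 0.1 on the log2 scale. With the union of all exons as length, 8 of the 10 genes kept their rank in control libraries. The filter on low counts left 12 target genes untested, none above 15 counts in any library; with no filter beyond 1 count, 47 target genes were tested and 30 called (17 higher), against 29 of 37 (16 higher).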

Other observations

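The kappaB consensus was also counted over the other tested genes that had a promoter window, as a description. Of 808 genes with a match in the 250 bases before a start, 22.5% were called higher and 25.1% lower, with a median log2 fold change of 0.00045. Of 9118 genes without one, 25.2% were called higher and 22.3% lower, with a median of 0.014. The difference between these sets of genes was not tested.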
